A study of Mus musculus with 12 samples.

Results

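The 10 genes described here belong to the osteoclast programme and to the RANKL system that controls it, and they were chosen by name from the 28244 genes listed for this series. They are Tnfsf11, Tnfrsf11b and Csf1, whose products are secreted or presented by bone and cartilage cells, and the osteoclast-side genes Tnfrsf11a, Calcr, Dcstamp, Ocstamp, Atp6v0d2, Ctsk and Acp5. RNA was sequenced from pellets of cartilage progenitors taken from the ends of the femurs and tibiae of C57/BL6 mouse pups aged 5 or 6 days. All pellets received chondrogenic medium for 7 days, and were harvested then (D7) or after a further 1, 3 or 21 days in osteogenic medium (D8, D10 and D28), with 3 libraries at each of the 4 time points. Every group therefore shares the chondrogenic week, and osteogenic medium cannot be told apart from time in culture. The starting cells were characterised by cytometry as lacking the blood cell antigens CD45 and Ter119, without a sort being stated, and no osteoclasts or their precursors were added.

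Osteoclasts are multinucleated cells of the monocyte and macrophage lineage that dissolve mineralised matrix. Cells of the osteoblast and hypertrophic chondrocyte lineages steer their formation by supplying CSF1, which keeps the precursors alive, and RANKL (Tnfsf11), which binds its receptor RANK (Tnfrsf11a) on them. The same cells secrete osteoprotegerin (Tnfrsf11b), a soluble decoy receptor that captures RANKL, so that the balance of both is commonly read as a measure of how strongly a tissue favours osteoclasts.

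The ligand side was well expressed and moved in a wave. RANKL fell until D10 and rose to its highest level at D28, osteoprotegerin took the opposite course, and Csf1 ended higher than it began. On the osteoclast side, Calcr was at 0 and Tnfrsf11a, Dcstamp and Ocstamp were barely detected. Ctsk, Atp6v0d2 and Acp5 were measured in every library. Ctsk and Atp6v0d2 peaked at D10, and Acp5 was highest at D28. Levels are log2 of the equalized read count plus 1. Equalization means that all libraries were brought to nearly the same set of values, and original read totals are not kept. Relative depth, read from low values, was 0.73 to 1.309 across libraries, with medians of 0.919 at D10 and 1.273 at D28. Differences between time points are log2 fold changes from limma over 17674 tested genes with Benjamini-Hochberg adjustment, and a gene is said to rise or fall only where the change was at least 1 with an adjusted p under 0.05. In these bulk pellets, fewer cells of a type and less RNA per cell cannot be told apart.

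**Figure D1:**
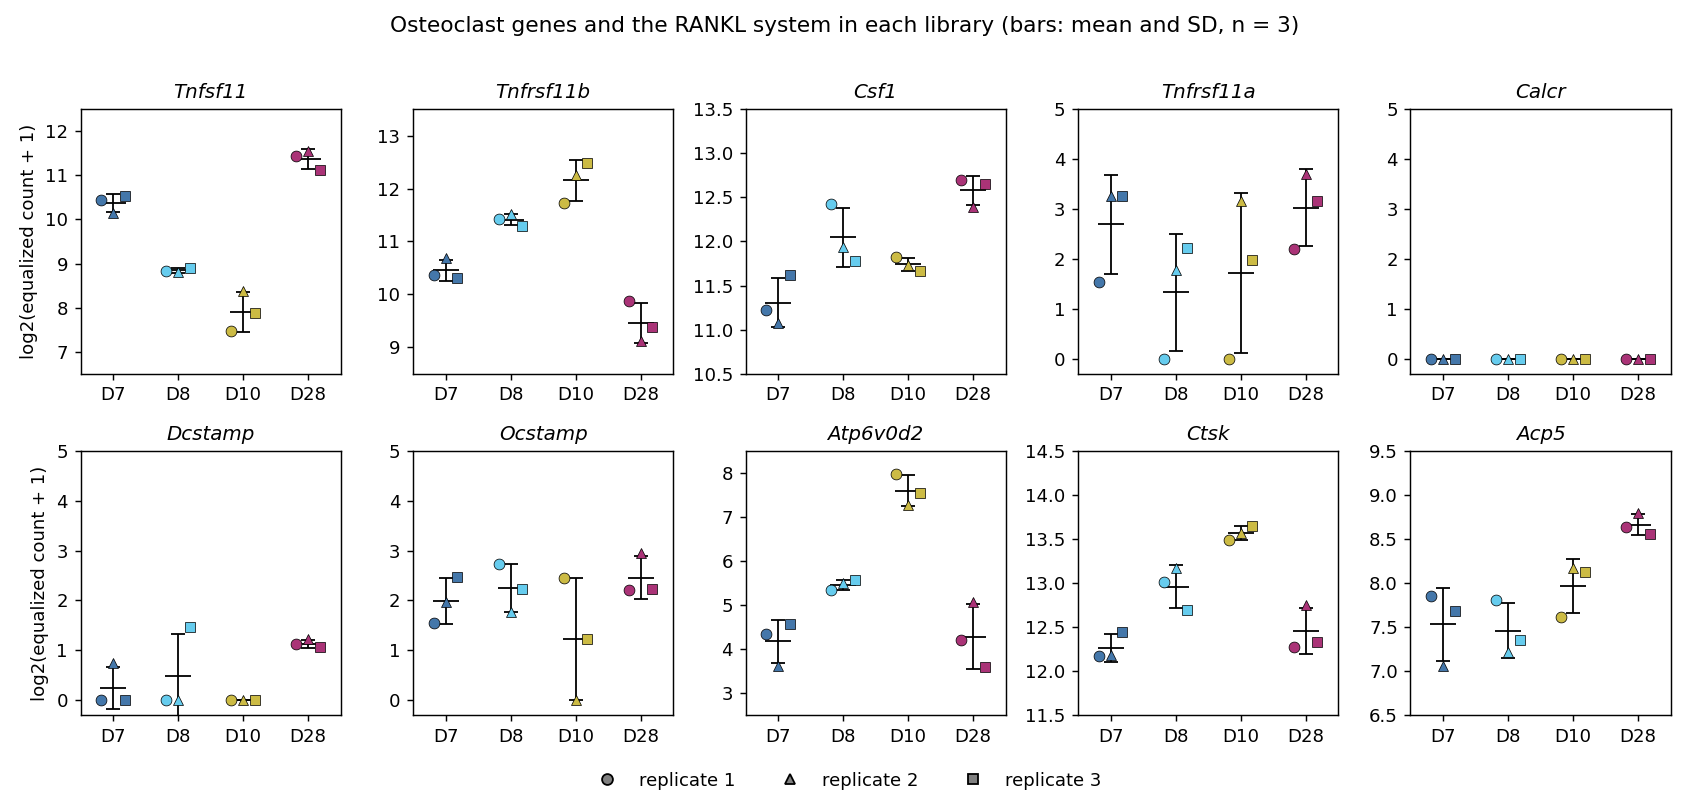
Level of each of the 10 genes in each library, as log2 of the equalized count plus 1 (vertical axes differ between genes), against the day of culture. Symbols are replicates and bars are the mean and SD of 3 libraries. Tnfsf11 is lowest at D10 and highest at D28, Tnfrsf11b is the reverse, Atp6v0d2 and Ctsk peak at D10, and Calcr is at 0 in every library.

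Tnfsf11, the gene of RANKL, lies on the minus strand at chr14:78277445-78308043 of GRCm38. The window of 300 bases around its start site, which RefSeq places at chr14:78307994-78308293 of GRCm38.p6, minus strand, is shown because this gene had the widest swings of the ligand side. Capitals mark TATAA, the core of the element known by those letters, searched on both strands. It matched 2 times here, once on each strand, in overlapping runs with first bases at -31 and -30 from the start.
Tnfsf11: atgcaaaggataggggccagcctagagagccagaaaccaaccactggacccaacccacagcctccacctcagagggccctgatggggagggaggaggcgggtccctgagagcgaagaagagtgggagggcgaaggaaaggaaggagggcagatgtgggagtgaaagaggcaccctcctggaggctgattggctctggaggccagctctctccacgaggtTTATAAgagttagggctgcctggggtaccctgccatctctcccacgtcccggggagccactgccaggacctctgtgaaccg
Of the 32851 windows of this length, 24.9% hold TATAA on either strand at any position. No share was computed for matches at this distance from the start, and whether the match acts as a site was not tested.

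At D7, Tnfsf11 stood at 10.43, 10.15 and 10.54 in the 3 libraries. It was at 8.83, 8.8 and 8.9 at D8, and at 7.46, 8.37 and 7.89 at D10. The D28 libraries held 11.44, 11.55 and 11.12, above all other libraries of the series. The 4 time points did not overlap for this gene, and the spread was widest at D10. Tnfsf11 fell by 1.53 on the log2 scale within the first day of osteogenic medium (SE 0.18, limma adjusted p = 4.1e-05). From D7 to D10 the fall reached 2.47 (SE 0.18, limma adjusted p = 7.1e-08), a 5.52-fold lower level. It then rose by 3.46 between D10 and D28 (SE 0.18, limma adjusted p = 6.9e-10), which is 11-fold. The step from D8 to D10 alone was -0.94 (limma adjusted p = 0.0016) and was not called. The D28 level was 0.996 above D7 (limma adjusted p = 0.00053), just under the fold threshold, and is likewise not counted as a rise.

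Tnfrsf11b, the gene of osteoprotegerin, lies at chr15:54250619-54278484 on the minus strand. Its levels were 10.37, 10.68 and 10.31 at D7 and 11.42, 11.52 and 11.3 at D8. They were 11.73, 12.25 and 12.49 at D10 and 9.87, 9.12 and 9.39 at D28. Again no time point overlapped another, but the order was reversed, with D10 the highest and D28 the lowest. Tnfrsf11b rose by 1.71 from D7 to D10 (SE 0.19, limma adjusted p = 4.1e-06), which is 3.27-fold. It fell by 2.70 from D10 to D28 (SE 0.19, limma adjusted p = 1.6e-08), which is 6.5-fold. The smaller steps of 0.96 from D7 to D8 and 0.74 from D8 to D10 had limma adjusted p = 0.0021 and 0.0089 without reaching the fold threshold. The same holds for D28 against D7, where the difference was -0.993 (limma adjusted p = 0.00074).

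The difference between Tnfsf11 and Tnfrsf11b was taken within each library, as a description with no test and without correction for gene length. At D7 it was 0.07, -0.53 and 0.23, so both genes had about the same equalized level. At D8 it was -2.6, -2.72 and -2.4, and at D10 -4.27, -3.88 and -4.6. The D28 libraries gave 1.57, 2.43 and 1.74. All D8 and D10 libraries thus had a higher equalized count of osteoprotegerin than of RANKL, and all D28 libraries had a higher one of RANKL. In unlogged terms the mean difference corresponds to a ratio of equalized counts, osteoprotegerin to RANKL, of 5.94 at D8 and 19.0 at D10, against 1.05 at D7. At D28 the ratio of RANKL to osteoprotegerin was 3.77. The shift of this ratio was 18.1-fold downward from D7 to D10 and 71.7-fold upward from D10 to D28. Per kilobase of exonic sequence, which allows levels of different genes to be set side by side, Tnfsf11 averaged 9.22, 7.69, 6.8 and 10.22 at the 4 time points in order of day. Tnfrsf11b averaged 8.97, 9.92, 10.7 and 8.0 on the same scale. The order of the genes at D8, D10 and D28 is the same with this correction.

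**Figure D2:**
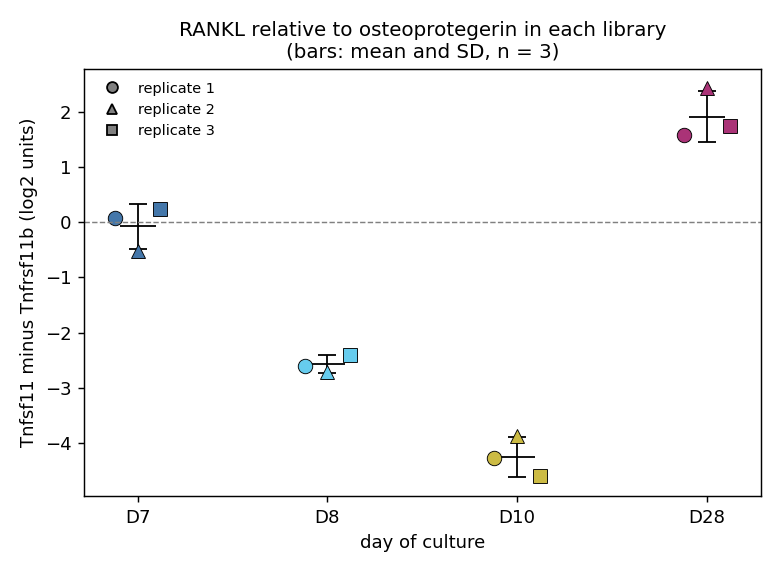
Tnfsf11 minus Tnfrsf11b in log2 units (vertical axis) in each library against the day of culture, with the mean and SD of 3 libraries as bars and a dashed line at equal levels. The mean is near 0 at D7 (-0.08), is lower at D8 (-2.57) and D10 (-4.25) and is above 0 at D28 (1.91).

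Csf1, at chr3:107741048-107760469 on the minus strand, encodes the growth and survival factor of monocytes and osteoclast precursors. Its levels were 11.22, 11.08 and 11.62 at D7 and 12.42, 11.94 and 11.78 at D8. They were 11.82, 11.73 and 11.67 at D10 and 12.7, 12.39 and 12.65 at D28. The D7 libraries were the lowest of the series, D8 and D10 overlapped, and 1 D8 library reached the lower end of D28. Csf1 rose by 1.27 from D7 to D28 (SE 0.16, limma adjusted p = 1.5e-05), which is 2.41-fold. The D8 step of 0.74 (limma adjusted p = 0.004) and the D28 step over D10 of 0.84 (limma adjusted p = 0.00039) stayed under the fold threshold. Il34, whose product is the other ligand of the CSF1 receptor, averaged 5.80, 7.46, 7.96 and 9.23 in order of day. It rose by 2.16 from D7 to D10 (limma adjusted p = 2.2e-07) and by 3.43 from D7 to D28 (limma adjusted p = 2e-09).

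The receptor and fusion genes of the osteoclast were barely detected. Tnfrsf11a, the gene of RANK, at chr1:105780718-105847981 on the plus strand, was read at 2, 9 and 6 reads at D7 and at 0, 2 and 4 reads at D8. It had 0, 5 and 2 reads at D10 and 6, 18 and 13 reads at D28. The time points overlapped, with 2 libraries at 0 and 67 reads in all. None of the 5 comparisons called Tnfrsf11a. With an SE of 0.81, the 95% interval of the log2 fold change ran from -2.71 to 0.75 for D10 against D7 and from -1.40 to 2.07 for D28 against D7. Both intervals hold 0, and changes within them are not resolved by these reads.

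Calcr, the calcitonin receptor gene at chr6:3685680-3764714 and a defining marker of the mature osteoclast, was at 0 in all 12 libraries. A count of 0 allows up to 3 reads per library, which corresponds to levels of at most 1.5 to 2.87 depending on the library, and this limit covers counting error only. Dcstamp, at chr15:39745930-39760938, encodes a membrane protein needed for the fusion of precursors into multinucleated cells. It had 9 reads in all and 7 libraries at 0, and each D28 library held 2 reads. Ocstamp, at chr2:165393760-165400405, encodes a protein that acts in the same fusion step. It had 44 reads in all, and 7 of the 12 libraries were at or under 3 reads. The D28 libraries held 6, 10 and 6 reads of Ocstamp in the time point with the highest median depth. Neither fusion gene was called in any comparison as fitted. Dcstamp, which was at 0 in all D10 libraries, was called for D28 against D10 without the filter on low values (limma adjusted p = 0.038), without the variance trend (limma adjusted p = 0.025) and under the study's own unadjusted rule. Ocstamp was called in that comparison without D10 replicate 1 (limma adjusted p = 0.019). All libraries held at most 3 reads of Dcstamp, and all D10 libraries at most 3 reads of Ocstamp.

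Atp6v0d2, at chr4:19876841-19922605 on the minus strand, encodes a subunit of the proton pump that acidifies the resorption space and is also used in precursor fusion. Its levels were 4.35, 3.63 and 4.56 at D7 and 5.34, 5.49 and 5.56 at D8. They were 7.97, 7.26 and 7.55 at D10 and 4.2, 5.06 and 3.6 at D28. D10 stood above all other libraries, D8 lay between, and D28 overlapped D7. Atp6v0d2 rose by 1.28 from D7 to D8 (SE 0.37, limma adjusted p = 0.023) and by 2.13 from D8 to D10 (SE 0.37, limma adjusted p = 0.00066). The early rise lost its call without D7 replicate 2 (1.01, limma adjusted p = 0.087) and without any 1 of the D8 libraries (limma adjusted p from 0.052 to 0.066). From D7 to D10 the rise was 3.41 (limma adjusted p = 3.2e-06), or 10.6-fold. It fell by 3.30 from D10 to D28 (limma adjusted p = 2.4e-06), or 9.88-fold, and D28 differed from D7 by 0.11 (limma adjusted p = 0.85).

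Ctsk, at chr3:95499256-95509362 on the plus strand, encodes cathepsin K, the collagen-degrading protease that osteoclasts release onto bone and that some mesenchymal cells also express. It was the most abundant of the osteoclast-side genes per kilobase, with means of 11.67, 12.37, 12.98 and 11.87 in order of day. As levels in the libraries, it stood at 12.17, 12.18 and 12.44 at D7 and at 13.01, 13.17 and 12.69 at D8. It was at 13.49, 13.57 and 13.65 at D10 and at 12.28, 12.75 and 12.33 at D28. D10 was again the highest time point without overlap, and D28 overlapped D7. Ctsk rose by 1.31 from D7 to D10 (SE 0.14, limma adjusted p = 3.6e-06), which is 2.47-fold. It fell by 1.12 from D10 to D28 (SE 0.14, limma adjusted p = 9.7e-06), which is 2.17-fold. That fall was 0.99 and not called when the values were rescaled by median of ratios. D28 differed from D7 by 0.19 (limma adjusted p = 0.33).

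Acp5, at chr9:22126727-22135711 on the minus strand, encodes the tartrate-resistant acid phosphatase that is stained to show osteoclasts. A window at one of its 3 start sites in RefSeq, chr9:22130549-22130848 of GRCm38.p6, minus strand, is shown because it holds the motif TCATGTGA, the M-box bound by MITF, a transcription factor of osteoclasts. Capitals mark the motif, found in its reverse complement with its first base at -91 from the start.
Acp5: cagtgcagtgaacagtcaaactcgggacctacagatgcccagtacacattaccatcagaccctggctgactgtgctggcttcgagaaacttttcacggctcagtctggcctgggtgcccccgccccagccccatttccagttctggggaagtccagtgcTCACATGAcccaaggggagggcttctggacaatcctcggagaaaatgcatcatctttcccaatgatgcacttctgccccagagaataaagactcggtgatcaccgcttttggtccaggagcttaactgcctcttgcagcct
This motif is in 0.986% of all windows on either strand. Windows were found for 6 of the 10 genes, and no window of them held the RUNX core TGTGGT (16.8% of all windows) or the AP-1 letters TGANTCA (7.81%). The NFAT core GGAAA, on either strand, was found in windows of Tnfsf11, Csf1, Calcr, Ctsk and Acp5 and in 61.3% of all windows. These matches were letters only, and binding was not measured.

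Acp5 levels were 7.85, 7.06 and 7.68 at D7 and 7.81, 7.22 and 7.35 at D8. They were 7.61, 8.17 and 8.12 at D10 and 8.64, 8.79 and 8.55 at D28. The first 3 time points overlapped one another, and D28 stood above all of them. Acp5 rose by 1.13 from D7 to D28 (SE 0.22, limma adjusted p = 0.00088), which is 2.19-fold. Without D7 replicate 2, the lowest library, the difference was 0.89 and no longer reached the fold threshold. The D28 step over D10 was 0.69 (limma adjusted p = 0.016) and the D10 difference from D7 was 0.44 (limma adjusted p = 0.13). An exon of Acp5 overlaps 6530413G14Rik on the other strand, which reached at most 1.22 in any library, and whether reads were counted by strand is not given in the sources used here.

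Set against all tested genes, the 9 genes that passed the filter (all but Calcr) were called as follows. From D7 to D8, Atp6v0d2 rose and Tnfsf11 fell, 2 of 9, beside 7.04% of all tested genes (3.23% higher and 3.81% lower). From D8 to D10, Atp6v0d2 rose, 1 of 9, beside 9.66% (4.08% higher and 5.58% lower). From D7 to D10, Tnfrsf11b, Atp6v0d2 and Ctsk rose and Tnfsf11 fell, 4 of 9, beside 18.9% (8.5% higher and 10.4% lower). Tnfsf11 was thus the 1 gene of the 9 that fell in the early comparisons. From D10 to D28, Tnfsf11 rose and Tnfrsf11b, Atp6v0d2 and Ctsk fell, 4 of 9, beside 27.5% (13.8% higher and 13.7% lower). From D7 to D28, Csf1 and Acp5 rose, 2 of 9, beside 17.3% (8.63% higher and 8.66% lower). The same 4 genes make up the D10 comparisons in opposite directions, and both comparisons use the D10 libraries. Values of the groups did not overlap for 5, 4, 5, 7 and 5 of the 9 genes in these comparisons, beside 37.1%, 44%, 47.5%, 59.4% and 46.9% of all tested genes. With so few genes, shares of this kind are not a result about the group as a whole.

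**Figure D3:**
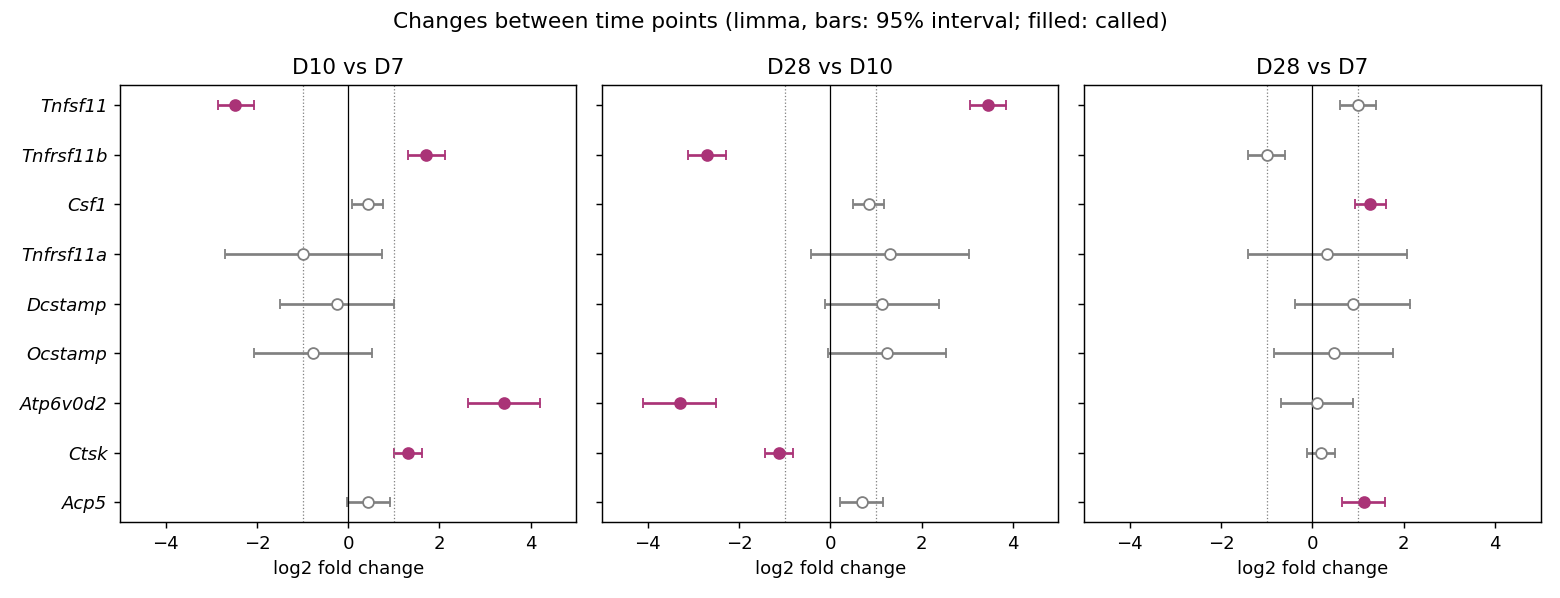
Log2 fold change (horizontal axis) of the 9 tested genes in 3 comparisons, as points with 95% limma intervals. Filled points were called, dotted lines mark the fold threshold, and the 4 genes called at D10 against D7 are those called with the opposite sign at D28 against D10.

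The D28 libraries were not alike in their myeloid RNA. Of 20 myeloid marker genes, 17 were highest in D28 replicate 2, and their summed level was 12.91 there against 10.97 and 11.01 in the other D28 libraries and 10.6 to 11.02 at the earlier time points. Csf1r, the CSF1 receptor of myeloid cells, was at 4.72, 7.92 and 5.13 in D28 replicates 1, 2 and 3, and Ptprc, the gene of CD45, was at 1.81, 4.12 and 2.82. Mmp9, a protease abundant in osteoclasts, followed at 1.5, 7.07 and 4.87. Of the 9 tested genes, 7 were highest at D28 in that library, all but Tnfrsf11b and Csf1. Without it, Acp5 at D28 against D7 was 1.06 (limma adjusted p = 0.0054), still called. The counts of genes called stayed 4 of 9 for D28 against D10 and 2 of 9 for D28 against D7. Over all tested genes, the calls without it were 4536 and 2758, beside 4854 and 3057 with all libraries. Tnfsf11 was then 3.37 and Tnfrsf11b -2.53 at D28 against D10, and the difference of both genes at D28 was 1.65, so the reversal was present in the other D28 libraries. The part of myeloid RNA in the smaller differences within D28 was not tested.

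Myeloid markers also varied between time points. From D7 to D10, 6 of 18 tested markers fell, with C1qb, C1qc and C1qa (complement genes of macrophages) at -4.63, -3.15 and -2.87, and with at most 3 reads in 3, 2 and 2 D10 libraries. Another 2 rose, Cd68 by 1.88 and Cd14 by 1.68. From D10 to D28, 11 rose and 1 fell, and without D28 replicate 2 the count was 6 and 2 of 17 tested. From D7 to D28, 4 rose and 1 fell, and 3 and 1 without that library. The rise of Atp6v0d2 and Ctsk from D7 to D10 thus stood beside 6 falling and 2 rising markers, and the rise of Acp5 from D7 to D28 beside the rises of C1qa, C1qb, C1qc and Cd14 and the fall of Laptm5. Of 8 adipocyte markers, 5 fell and 0 rose from D7 to D10 with a median of -1.76, and 8 rose from D10 to D28 and from D7 to D28, with medians of 4.4 and 3.17. Their summed level was 12.7 to 12.81 at D7, 11.5 to 11.68 at D10 and 15.88 to 16.34 at D28, so that it was lowest and highest at the same time points as Tnfsf11. Their part in the RANKL and Csf1 levels was not tested.

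**Figure D4:**
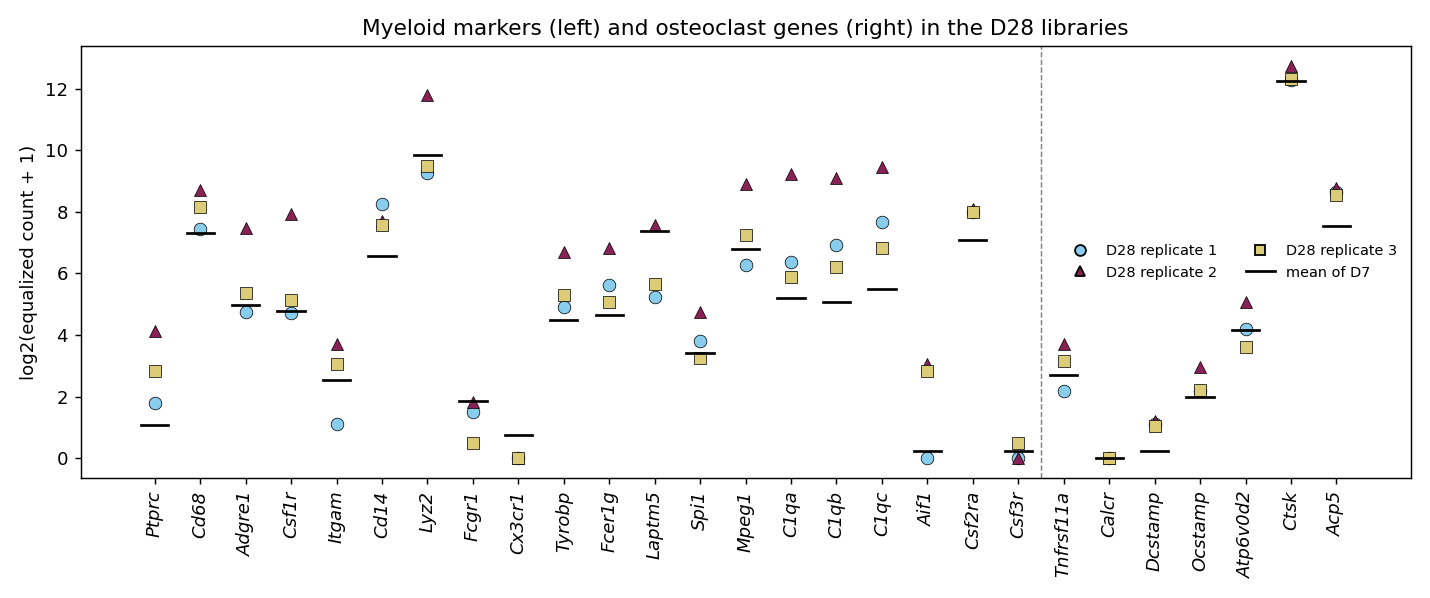
Levels of myeloid markers (left of the dashed line) and osteoclast genes (right) in the 3 D28 libraries, as log2 of the equalized count plus 1, with the D7 mean as a horizontal line. Replicate 2 is the highest for 17 of the 20 markers, and Acp5 is above the D7 mean in all 3 libraries.

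Genes known to act on RANKL expression were read beside it. In osteoblast-lineage cells, vitamin D, parathyroid hormone and cytokines of the IL-6 family raise RANKL. Of 21 such inducers and receptors, 8 fell and 3 rose from D7 to D10, with a median of -0.38 beside 0.05 over all tested genes. The vitamin D receptor gene Vdr was at 9.71, 9.19 and 9.61 at D7, at 6.22, 6.66 and 6.6 at D10 and at 10.27, 10.3 and 9.96 at D28. Its levels were thus lowest at D10 and highest at D28, as for Tnfsf11. Vdr fell by 3.01 from D7 to D10 (SE 0.17, limma adjusted p = 3.5e-09) and rose by 3.68 from D10 to D28 (SE 0.17, limma adjusted p = 1.2e-10). Pth1r, the receptor of parathyroid hormone, fell by 2.86 (SE 0.17) and rose by 2.09 (SE 0.17) in the same comparisons. The cytokine receptor genes Il6ra, Lifr, Il11ra1 and Il1r1 fell and rose with them, while the cytokine genes Il6, Lif and Il11 went the other way. Il6 rose by 3.28 to D10 (SE 0.69, limma adjusted p = 0.0014) and fell by 4.97 to D28, with 2 libraries of D7 and 2 of D28 at or under 3 reads. In all, 6 rose and 4 fell from D10 to D28, and 0 rose and 3 fell (Lif, Il11 and Ptger4) from D7 to D28, or 0 and 4 without D28 replicate 2.

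A list of 28 genes of RANK and CSF1 signalling held the CSF1 receptor gene Csf1r, its ligand gene Il34, the gene of a further RANKL receptor, Lgr4, and genes that act downstream of the receptors. Of these, 7 rose and 1 fell from D7 to D10 (median 0.29). The risers included Il34 and the downstream genes Plcg2 by 2.45, Gab2 by 1.95 and Syk by 1.68, and the 1 that fell was Lgr4, by 1.05. From D10 to D28, 8 rose and 5 fell. From D7 to D28, 5 rose and 2 fell. Without D28 replicate 2 these counts were 3 and 5, then 2 and 2, and the genes still called higher than at D7 were Il34 and Tec. Nfatc1, the transcription factor that RANKL induces in osteoclast precursors, averaged 11.11, 11.99, 11.93 and 9.86 over the same days. It fell by 2.07 from D10 to D28 (SE 0.13, limma adjusted p = 4.1e-09), in the comparison where RANKL rose. Tnfrsf11a had 67 reads over all libraries, and which cells of the pellets held the Nfatc1 RNA was not tested. Traf6, the adaptor that binds RANK, averaged 8.96, 8.98, 9.46 and 8.64 in order of day and was not called in any comparison. Its D28 difference from D10 was -0.81 (limma adjusted p = 7.6e-05), under the fold threshold.

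The machinery of acid secretion and matrix attachment was read beside Atp6v0d2, Ctsk and Acp5. Of 18 genes, 5 rose and 1 fell from D7 to D10, with Itgb3, a subunit of the integrin that seals the osteoclast to bone, up by 2.33 (SE 0.17, limma adjusted p = 4.6e-08). Itgb3 was at 12.55, 11.71 and 11.89 at D10 and at 7.4, 7.68 and 7.56 at D28, so that it fell by 4.5 and, like Atp6v0d2, peaked at D10. Unlike Atp6v0d2, it ended below D7, by 2.17. Which cells of the pellets held the Itgb3 RNA was not tested. Car2, the carbonic anhydrase that supplies protons, rose by 3.20 to D10 (SE 0.72), with 2 D7 libraries at or under 3 reads. From D10 to D28, 3 rose and 1 fell, and from D7 to D28, 4 rose, with Slc9b2 at 3.32, and 1 fell. The former counts were 3 and 2 without D28 replicate 2. Of 22 tested subunits and accessory proteins of the proton pump other than Atp6v0d2, 6 rose and 1 fell from D7 to D10, with a median of 0.64 beside 0.05 over all tested genes. The risers included Atp6v0e2 at 2.60, Atp6v1b2 at 1.47 and Atp6v1g1 at 1.43. The 1 that fell was Atp6v0a4, by 1.82 (limma adjusted p = 2.4e-07), and it rose by 1.75 from D10 to D28. In the latter comparison 3 pump genes rose and 3 fell, or 3 and 4 without D28 replicate 2. Tcirg1, the pump subunit enriched in osteoclasts, averaged 9.35, 9.33, 9.44 and 8.46 and was not called. Its D28 differences stayed under the fold threshold, at -0.98 from D10 (limma adjusted p = 5.4e-05) and -0.89 from D7 (limma adjusted p = 0.00024). From D7 to D28, 2 pump genes rose and 1 fell, Atp6v1b1, with 2 D7 libraries and all D28 libraries at or under 3 reads. The counts were 2 and 0 without D28 replicate 2.

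Cathepsins other than cathepsin K were read beside Ctsk. Of 11 tested, 0 rose and 2 fell from D7 to D10, namely Ctsc by 1.56 and Ctss by 1.15. Ctsl, the gene of cathepsin L, had its highest mean at D10 as Ctsk did, with means of 13.55, 13.80, 14.52 and 13.83 in order of day. Its difference from D7 was 0.97 (limma adjusted p = 1.4e-05), just under the fold threshold, and its D28 difference from D10 was -0.70 (limma adjusted p = 0.00019). From D10 to D28, where Ctsk fell, 6 rose and 1 fell, and from D7 to D28, 5 rose, with Ctsz at 1.37 and Ctsb at 1.26, and 2 fell. The change of greatest size was that of Ctsw, which fell by 5.72 from D10 to D28 (SE 0.32, limma adjusted p = 1.4e-09) and by 5.64 from D7 to D28 (SE 0.32, limma adjusted p = 4.9e-09), with 1 D28 library at or under 3 reads. Without D28 replicate 2, 4 rose and 2 fell in the last comparison. Of 12 tested ligands of the TNF superfamily other than RANKL, 1 rose (Tnfsf18) and 1 fell (Eda, by 1.25) from D7 to D10, and Lta was the 1 that fell from D10 to D28, where Tnfsf12, Tnfsf13b and Eda rose. Tnfsf18 was at or under 3 reads in all D7 libraries and 1 D10 library, and Lta in 2 D10 libraries and all D28 libraries. The Eda course, down and then up by 1.96, was in the same directions as that of Tnfsf11. Of 15 tested osteoblast and osteocyte factors that act on osteoclasts, 6 rose and 4 fell from D7 to D10, and 3 rose and 6 fell from D10 to D28. Cxcl12, a chemokine that draws in precursors, fell by 4.18 and then rose by 6.28, and Bmp2 rose by 3.29 and then fell by 3.08. From D7 to D28, 3 factors rose (Ccl2, Cxcl12 and Cxcl1) and 4 fell. As many as 8 factors fell from D10 to D28 without D28 replicate 2.

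Each gene was also set beside all other tested genes by the Pearson correlation of its values over the 12 libraries, as a description, since the libraries share time points and normalization. Tnfsf11 was most like Fxyd1 (r = 0.994), Pxmp4 (0.992) and Angpt1 (0.992). Tnfrsf11b was most like 4930471E19Rik (0.987), Tnfrsf23 (0.983) and Hbegf (0.981), and Csf1 was most like Aldh2 (0.946). These genes had their lowest and highest means at the same time points as Tnfsf11, Tnfrsf11b or Csf1. Atp6v0d2 was most like Nr6a1 (0.986), Ctsk like the pump subunit gene Atp6v1g1 (0.976), and Acp5 like Grin2a (0.956). For the sparse genes the nearest were Fhl4 for Tnfrsf11a (0.885), Clec4a3 for Dcstamp (0.944) and Ctnnbl1 for Ocstamp (0.887), and correlations of so few reads are no finding.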

How the data were processed

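Poly-A RNA was sequenced from mouse cartilage progenitor pellets in 12 libraries. The authors deposited log2 values, the log2 of the equalized HTSeq count plus 1 per gene and library, with no pooling of replicates. The submitters' processing notes name Trimmomatic 0.36, HISAT2, Cufflinks, HTSeq and GRCm38, while the supplementary methods name hg38. Genes were mouse symbols, and positions are from GENCODE M21 (GRCm38). Equalization removed the read totals, so the read count of low values was inferred from their position among the distinct values of the library, and depth limits precision for the sparse genes.

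The 17674 genes that reached a value of 1 in 3 or more libraries were tested (10570 did not) with limma 3.58.1 in R 4.3.3, two-sided, fitting a mean for each time point and a trend in the variance, with 8 residual degrees of freedom. The fit was tested on simulated data. The study's per-gene rule was an alternative. Nothing says that replicates are separate preparations, so p-values measure only the spread between these libraries, which may be technical. No batch is given. Promoter windows are from RefSeq. The members and gene lists were chosen with earlier results of these data known. Genes set to be named were all members and up to 3 called genes with the largest change per list for D10 and D28 against D7. Csf1r, Ptprc, Nfatc1, Traf6, Tcirg1, Il34 and the nearest genes by correlation were set as well. Not all genes of the per-list rule are printed, and other list genes were named after their values were seen. Alternatives covered the filter, normalization, pseudocount, low values, thresholds, variance prior, test, replicate block and each library left out. Counts without D28 replicate 2 for the lists were added after seeing the data.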

Additional observations from a re-analysis of the deposited data

How the results depend on the processing

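The main limits are 3 libraries per time point, equalized values and few reads for the receptor and fusion genes. The count of the 9 genes called depended on the fold threshold. With no fold threshold it was 5 for D8 against D7, 4 for D10 against D8, 5 for D10 against D7 and 4 for D28 against D7. For D28 against D10, Csf1 and Acp5 were then called as well. With a log2 threshold of 2 the count was 0 for D8 against D7, 1 for D10 against D8, 2 for D10 against D7 and 0 for D28 against D7. For D28 against D10, Ctsk was then not called. Over all tested genes, no fold threshold gave 3714, 5096, 7288, 9259 and 6592 calls and a threshold of 2 gave 388, 532, 1342, 2095 and 1356, in the order D8 against D7, D10 against D8, D10 against D7, D28 against D10 and D28 against D7, beside 1244, 1708, 3340, 4854 and 3057 as reported. With each library left out in turn, the members called ranged from 1 to 2 for D8 against D7, 1 to 2 for D10 against D8 and 1 to 4 for D28 against D7. Over all tested genes, the calls in these comparisons ranged from 1006 to 1331, 1379 to 1775 and 2758 to 3146. The member count for D8 against D7 was 1 without D8 replicate 1 or 2, and that for D10 against D8 was 2 without D10 replicate 2. The member count for D28 against D7 was 4 without D7 replicate 1 or 3 and 1 without D7 replicate 2. For D28 against D7, Tnfsf11 (0.996) and Tnfrsf11b (-0.993) were just under the fold threshold with all libraries. With each library left out they ranged from 0.88 to 1.12 and from -1.2 to -0.82, and Acp5 ranged from 0.89 to 1.29. Why the libraries differ was not tested.

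Differences near 0 changed sign with a library left out. The ranges were -0.31 to 0.09 for Acp5 and -0.25 to 0.49 for Dcstamp at D8 against D7, -0.35 to 1.24 for Tnfrsf11a at D10 against D8, -0.24 to 0.75 for Tnfrsf11a and -0.28 to 0.45 for Atp6v0d2 at D28 against D7, and -0.23 to 0.15 for the RANKL and osteoprotegerin difference at D7. The calls of Tnfsf11, Tnfrsf11b and Atp6v0d2 for D28 against D10, and of Tnfsf11 and Atp6v0d2 for D10 against D7, held in all 22 alternatives. Rescaling by median of ratios moved the median of all genes for D28 against D10 from -0.1 to 0.01, and under it Tnfsf11 at D28 against D7 was 1.05 and called. Replicate numbers did not pair the libraries, since correlations of same-numbered deviations were -0.06 to 0.07 over 18 pairs and 3 of 12 libraries correlated best with their own number. With the replicate block the members called were 2, 1, 4, 4 and 2, as without it, and the calls over all genes were 1210, 1691, 3326, 4825 and 3030.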

Other observations

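The remaining marker lists describe the pellets in which these genes were read. Of 10 chondrocyte markers, 0 rose and 6 fell from D7 to D10, with Ihh, a signal of prehypertrophic chondrocytes, at -5.98 and Matn3 at -4.37. Ihh was at or under 3 reads in 2 D10 libraries. From D10 to D28, 5 rose and 2 fell, and from D7 to D28, 0 rose and 3 fell, with Col10a1, a collagen of hypertrophic cartilage, at -2.99. Without D28 replicate 2, 5 rose and 1 fell from D10 to D28. Of 11 tested osteoblast and osteocyte markers, 5 rose and 4 fell from D7 to D10. Ibsp and Alpl, which like Tnfsf11 were lower at D10, were at -6.34 and -3.26, while Bglap2, an osteocalcin gene, was at 4.32. From D7 to D28, 5 rose, with Bglap2 at 5.87 and Bglap at 5.77, and 2 fell, or 4 and 2 without D28 replicate 2. Bglap and Bglap2 are near-identical copies, and reads may be split between them.

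Lymphocyte and endothelial markers were read at low levels. Of 10 lymphocyte markers, 2 passed the filter, and 1 of them, Lck, was called, at 1.80 for D10 against D7 and at -2.67 for D28 against D7, where 2 of the D28 libraries were at or under 3 reads. Of 7 endothelial markers, 2 rose from D7 to D8, Pecam1 by 2.27 (SE 0.67, limma adjusted p = 0.025) and Kdr, with a median of 1.64 over the list, and their summed level was 6.11 to 8.0 at D8 against 4.82 to 5.72 at D7. From D8 to D10, 1 fell (Cdh5, by 2.23, SE 0.67, limma adjusted p = 0.021, with all D10 libraries at or under 3 reads). Against D7, 1 rose at D10 (Kdr, with all 3 D7 libraries at or under 3 reads) and 1 fell at D28 (Cdh5, with all 3 D28 libraries at or under 3 reads). Without D28 replicate 2, 1 rose (Kdr) and 0 fell from D7 to D28, so the calls of this comparison depend on that library.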
